A study of Mus musculus with 6 samples.

Results

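Interferon-stimulated genes were followed in endothelial cells that had migrated into Matrigel, a basement membrane gel, implanted as plugs in Balb/c nude mice. The group was a list of 44 genes, and a member was measured where the array's annotation gave a probe set that gene's symbol alone. This held for 42 of the 44, through 74 of the 45037 probe sets tested, among 18193 genes in all. Isg15, the ubiquitin-like protein after which part of the system is named, shares its probe set with another gene, and Ifi44 had no listed probe set, so neither is analysed here. The plugs lay in the peritoneal cavity with or without added recombinant MFAP5, which is secreted and belongs to the microfibrils of elastic tissue. There were 3 MFAP5 and 3 control samples, each on its own Affymetrix mouse array. The source labels call the samples independent without tying each to an animal, so p-values measure the spread between these samples, which may be technical. Nude mice lack a thymus and most T cells but keep NK cells, B cells and myeloid cells. The sources used here do not say how the endothelial cells were separated, nor give the dose of MFAP5 or the time in the animal.

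Interferons are secreted proteins. Among the triggers for making type I and type III interferons is the detection of viral or displaced nucleic acid by sensors. Type I and type III interferons signal through the kinases JAK1 and TYK2 to transcription factors that bind the interferon-stimulated response element, and type II interferon (interferon gamma) signals through JAK1 and JAK2 to factors that bind the gamma-activated site. The induced genes encode sensors, transcription factors that feed the response forward, antiviral enzymes and GTPases, and brakes such as USP18, and endothelial cells are among the many cell types that express them.

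Values are log2 signals relative to each probe set's median over the 6 arrays, averaged over the probe sets of a gene. Such values show differences between arrays, but no levels, so the order of genes by abundance cannot be read, nor can the presence of endothelial markers be checked. The log base of 2 was inferred from the range of the values, and every fold rests on it. Differences are MFAP5 minus control, tested with limma over all 18193 genes, and a gene is called where its Benjamini-Hochberg adjusted p is under 0.05.

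Most of the interferon-stimulated genes had higher signals with MFAP5, by modest amounts. Of the 42 measured, 11 rose and 1, Ifi27, fell. The 11 were Oas2, Oasl2, Oas3, Usp18, Trim30a, Irf7, Zbp1, Gbp3, Parp14, Ifit2 and Rtp4, with log2 differences from 0.53 to 1.08, which is 1.44-fold to 2.11-fold, and adjusted p from 0.0116 to 0.0475. They make up 26.2% of the measured members, where 0.759% of all genes were called higher and 2.79% lower. The median difference was 0.47 over the 42 members and -0.08 over all genes. A positive difference was found in 40 of the 42, against 34.4% of all genes. In 32 of them (76.2%) every MFAP5 array lay above every control array, which held for 6.51% of all genes. In Ifi27 alone every MFAP5 array lay below the controls, a pattern of 17.8% of all genes. At an unadjusted p under 0.05, 31 members were higher (73.8%), against 5.33% of all genes. In a bulk sample, more cells of a type and more RNA per cell cannot be told apart.

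The number called moved with single arrays. With control replicate 2 left out, limma called 0 members higher (0.0879% of all genes), with 31 at an unadjusted p under 0.05 and a median of 0.46. With control replicate 3 left out it called 0 as well (0.077% of all genes), with 26 at an unadjusted p under 0.05 and a median of 0.47. Without MFAP5 replicate 1 it called 4 (0.374% of all genes), and without MFAP5 replicate 3 it called 2, Oas2 and Oasl2 (0.643%). Without control replicate 1 the count was 15 (4.18% of all genes) and without MFAP5 replicate 2 it was 9 (0.671%). With the spike-in level of each array as a covariate 1 member, Zbp1, was called higher (0.264% of all genes), and the median was 0.47. With array weights 27 were called (6.18% of all genes), and with only probe sets free of suffixes for shared transcripts 7 of 32 (0.874%). Median centring of each array called 14 (0.89% of all genes), a variance trend 14 (0.868%), quantile normalization 13 (1.01%), the replicate number as a block 13 (0.841%) and the probe set of largest SD 8 (1.23%). With single arrays left out, the median difference ran from 0.39 without MFAP5 replicate 3 to 0.53 without MFAP5 replicate 2, and with the probe set of largest SD it was 0.60.

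**Figure D1:**
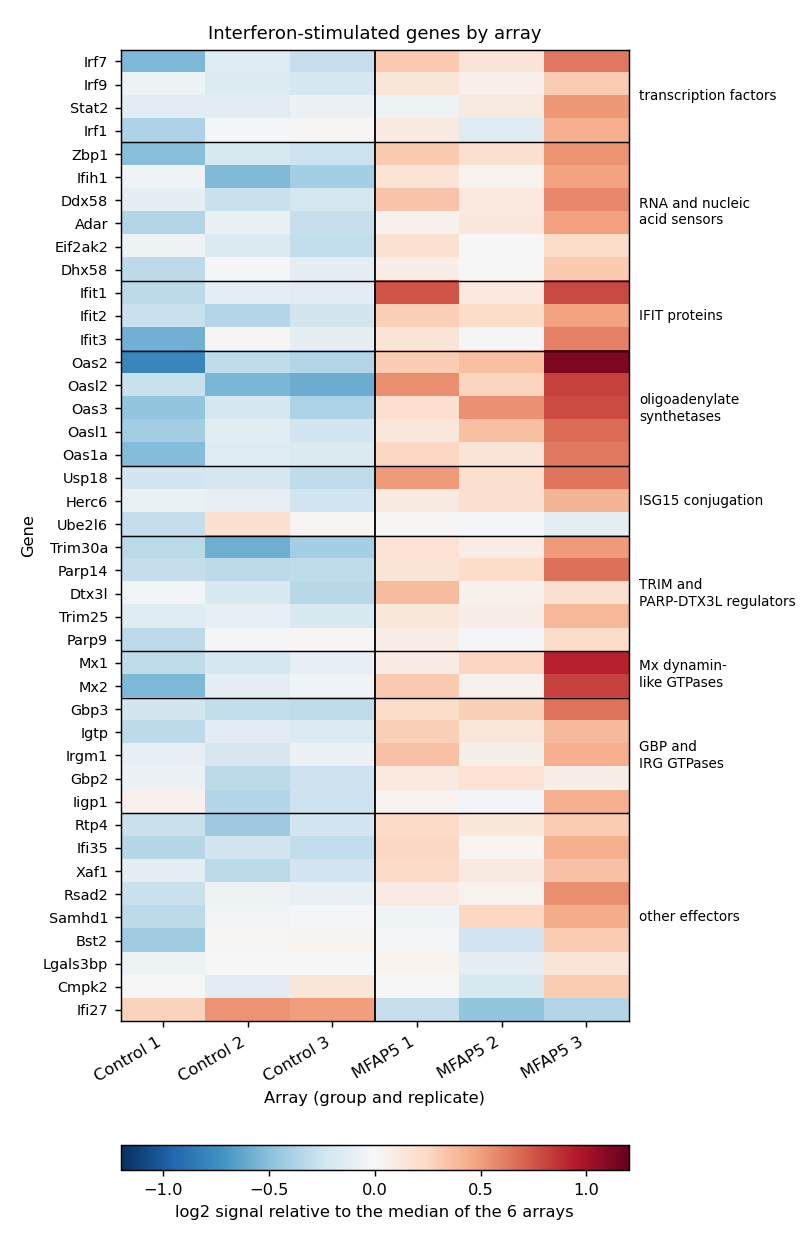
Log2 signal relative to the median of the 6 arrays for the 42 measured interferon-stimulated genes (rows, grouped by role) in the 3 control and 3 MFAP5 arrays (columns). The control columns are mostly blue (below 0) and the MFAP5 columns mostly red (above 0), MFAP5 replicate 3 is the reddest column, and Ifi27 in the bottom row runs the other way.

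The arrays differed within each group. The member medians were -0.28, -0.16 and -0.22 in control replicates 1, 2 and 3, and 0.16, 0.11 and 0.47 in MFAP5 replicates 1, 2 and 3. MFAP5 replicate 3 thus stood above the other MFAP5 arrays, and it had the highest signal of all 6 arrays in 38 of the 42 members. Among the 32 members with every MFAP5 array above every control array, replicate 3 was the highest in 30 (93.8%). Among the 1184 genes of the whole array with that same pattern it was the highest in 46.7%. MFAP5 replicate 2 was the lowest of its group in 30 members. Control replicate 1 was the lowest of all 6 arrays in 20 members, control replicate 2 in 11 and control replicate 3 in 8. Across all genes, which are not independent replicates, control replicate 1 correlated with control replicates 2 and 3 at only 0.046 and 0.10, while those correlated with each other at 0.70.

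Other features of the arrays moved with the groups. The counts of markers are to be read against all genes, of which 14.4% were lower and 5.33% higher at an unadjusted p under 0.05. Of 10 measured adipocyte markers 9 fell, with a median difference of -3.54. Control replicates 1, 2 and 3 had adipocyte marker medians of 1.16, 1.35 and 1.26, against -4.11, -2.64 and -0.96 for MFAP5 replicates 1, 2 and 3, so MFAP5 replicate 3 was again the highest of its group. Of 14 endothelial markers limma called 0, with 3 lower and 0 higher at an unadjusted p under 0.05, and their medians lay between -0.06 and 0.20 in the controls and between -0.15 and -0.03 with MFAP5. None of 12 macrophage markers was called, with 1 lower at an unadjusted p under 0.05, and their median was 0.15 in MFAP5 replicate 3 against 0.03 or less in each other array. Of 11 neutrophil markers 4 fell, with array medians of 0.06 to 0.41 in the controls and -0.25 to -0.16 with MFAP5. No dendritic cell marker (of 9), NK and T cell marker (of 9), B cell marker (of 4), mesothelial marker (of 5) or pericyte and smooth muscle marker (of 6) was called by limma, with 2, 3, 0, 1 and 1 of them lower and 0, 1, 0, 0 and 0 higher at an unadjusted p under 0.05. Of 8 fibroblast markers 1 fell, while 7 had a positive difference, 3 of them at an unadjusted p under 0.05, and the median difference was 0.27. The spike-in transcripts averaged -0.32, 0.64 and 0.65 in control replicates 1, 2 and 3 and lay between -0.04 and -0.01 with MFAP5 (difference -0.34, exact permutation test, two-sided, p = 0.4). The 3′ minus 5′ signal of beta-actin, a sign of RNA integrity, was higher in every MFAP5 array, by 0.12 on average (exact permutation test, two-sided, p = 0.1, the smallest that 3 against 3 allows). For Gapdh the same measure differed by 0.08 with overlapping arrays (p = 0.4 in the two-sided exact test). Apart from the spike-in level, fitted as a covariate above, the part of these features in the results below was not tested.

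Active oligoadenylate synthetases make short oligoadenylates that activate the RNA-degrading enzyme RNase L. The 5 measured genes of this family had the highest median of the role groups, 0.86: 3 of 5 rose, and in all 5 the groups did not overlap. Counts in this and the later role groups are to be read against all genes. Of all genes 0.759% were called higher and 2.79% lower, and 6.51% had every MFAP5 array above every control array. Oas2 stood at -0.79, -0.30 and -0.36 in control replicates 1, 2 and 3 and at 0.30, 0.36 and 1.12 in MFAP5 replicates 1, 2 and 3. MFAP5 replicate 3 was far above its group in this gene and control replicate 1 far below. The difference was 1.08 ± 0.23 (SE, n = 3 per group), with an adjusted p = 0.0412, and 61 of all genes had a higher one. It ranged from 0.81 to 1.22 as single arrays were left out, but among these fits passed the threshold only without MFAP5 replicate 3. In the others the limma adjusted p ran from 0.0502 to 0.13. Oas2 also missed the threshold with quantile normalization (adjusted p = 0.0536), the spike-in covariate (0.0638) and the unmoderated statistic (0.258). Oasl2, which encodes a synthetase-like protein with ubiquitin-like domains, stood at -0.26, -0.55 and -0.59 in the controls and at 0.56, 0.26 and 0.82 with MFAP5. Here control replicate 1 was the highest control, and the gap between the groups was still wide. The difference was 1.01 ± 0.16 (adjusted p = 0.0116). Oas3, the largest of the synthetases, stood at -0.47, -0.20 and -0.37 in the controls and at 0.20, 0.55 and 0.79 with MFAP5, a difference of 0.86 ± 0.16 (adjusted p = 0.0229). The last members, Oasl1 and Oas1a, differed by 0.65 and 0.63 and were not called (adjusted p = 0.0539 and 0.0706). Oas1a belongs to a family of close copies, whose transcripts its probe set may not separate.

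**Figure D2:**
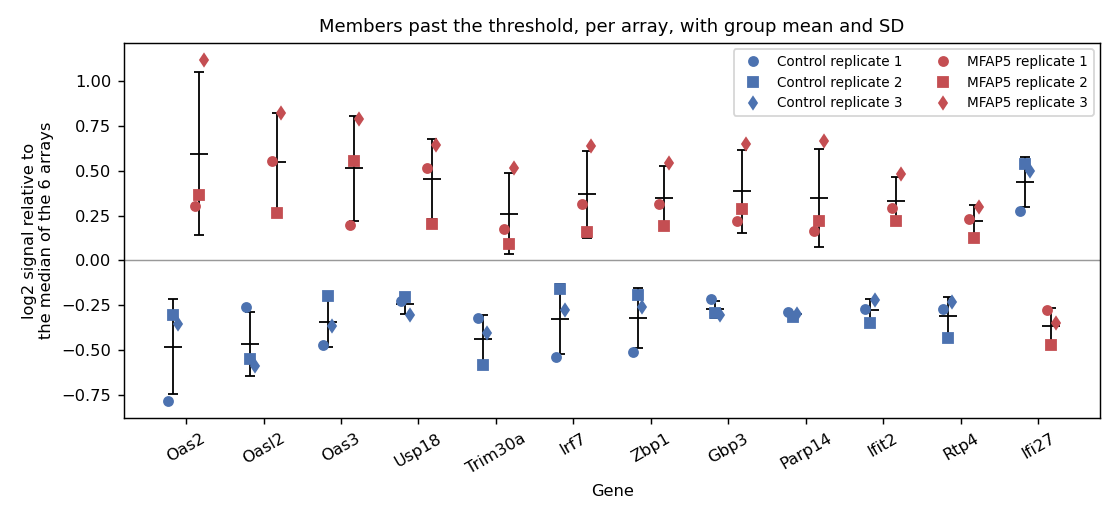
Log2 signal relative to the median of the 6 arrays for the 12 called interferon-stimulated genes: each point is 1 array (blue control, red MFAP5, the symbol gives the replicate), and black bars are the group mean and SD (n = 3). The groups do not overlap in any of the 12; MFAP5 replicate 3 is the highest point in the 11 genes that rose, and Ifi27 lies below 0 in the MFAP5 arrays.

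The upstream sequences of members in this and the next groups are shown because the response element is a feature by which interferons control such genes. The gamma-activated site is another. RefSeq promoters (GRCm38.p6, 250 bases before to 50 after the annotated start) were at hand for 33 of the 44 members. The called members Oas2, Usp18, Zbp1, Rtp4, Parp14 and Ifi27 had none, so whether they hold either element was not searched. The response element core was searched as GAAA, any 2 bases and GAAA on both strands, and 16 of the 33 members (48.48%) held it, against 3.99% of all 27025 genes with a promoter. The gamma-activated site, searched as TTC, any 3 bases and GAA, which reads the same on both strands, was held by 9 of the 33 (27.27%), against 9.55% of all genes. The 2 patterns can share letters, as they do in the Bst2 promoter. A match is a run of letters and not a shown binding site. The stretches below run from 160 bases to 1 base before the start, read 5′ to 3′ along the gene, with the matched letters in capitals: the response element in Oas3, Gbp3 and Trim30a, the called members that held it, and in Ifit1 and Ifit3, which held it at 2 separate places, and the gamma-activated site in Irf1.
Oas3, chr5:120777660-120777819, minus strand: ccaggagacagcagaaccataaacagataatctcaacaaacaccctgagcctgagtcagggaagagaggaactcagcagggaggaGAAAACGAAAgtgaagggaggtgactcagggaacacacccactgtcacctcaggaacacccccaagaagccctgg
Gbp3, chr3:142559884-142560043, plus strand: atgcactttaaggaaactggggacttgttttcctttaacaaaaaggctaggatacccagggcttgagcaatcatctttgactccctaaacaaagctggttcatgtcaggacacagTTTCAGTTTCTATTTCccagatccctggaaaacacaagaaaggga
Trim30a, chr7:104465194-104465353, minus strand: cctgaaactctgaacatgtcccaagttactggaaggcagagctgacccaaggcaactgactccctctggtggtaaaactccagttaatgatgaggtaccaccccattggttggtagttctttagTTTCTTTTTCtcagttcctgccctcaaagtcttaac
Ifit1, chr19:34640729-34640888, plus strand: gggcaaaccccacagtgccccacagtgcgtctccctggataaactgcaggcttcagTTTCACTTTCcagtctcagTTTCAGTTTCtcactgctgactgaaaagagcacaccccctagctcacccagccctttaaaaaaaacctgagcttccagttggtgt
Ifit3, chr19:34583369-34583528, plus strand: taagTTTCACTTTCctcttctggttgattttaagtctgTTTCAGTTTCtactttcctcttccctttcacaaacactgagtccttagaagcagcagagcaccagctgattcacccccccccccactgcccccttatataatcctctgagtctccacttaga
Irf1, chr11:53769854-53770013, plus strand: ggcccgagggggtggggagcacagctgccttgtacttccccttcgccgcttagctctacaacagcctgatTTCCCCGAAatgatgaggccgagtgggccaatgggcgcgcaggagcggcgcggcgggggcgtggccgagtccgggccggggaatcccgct
In Oas3 the match reads in the direction of the gene, and in the next 4 it lies on the other strand and reads as TTTC, any 2 bases and TTTC. In Gbp3 2 matches overlap. Trim30a has a second annotated start, whose match lies just inside the transcript. Among the measured members with a promoter, the 15 with a response element match had a median difference of 0.48, from 0.15 in Bst2 to 0.86 in Oas3, and 3 of them rose. The 16 without one had a median of 0.38, from -0.01 in Ube2l6 to 1.01 in Oasl2, and 3 of them rose as well, Oasl2, Irf7 and Ifit2. These ranges overlap widely.

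Among the transcription factors of the pathway 1 of 4 rose. Irf7, the interferon-induced factor that drives further interferon gene transcription, stood at -0.54, -0.16 and -0.28 in the controls and at 0.32, 0.16 and 0.64 with MFAP5. The groups were separate, with control replicate 1 the lowest and MFAP5 replicate 3 the highest array. The difference was 0.70 ± 0.15 (SE, n = 3 per group), with an adjusted p = 0.0475. In the fit over all probe sets, which called 1.56% of them higher and 1.72% lower, its single probe set had an adjusted p = 0.0601. Irf9 and Stat2, subunits of the complex that binds the response element, differed by 0.32 and 0.30 without passing (adjusted p = 0.159 and 0.313). Irf1, a factor that interferon gamma induces, differed by 0.25 with overlapping groups (95% confidence interval -0.13 to 0.64).

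Of the 6 sensors and regulators of foreign RNA and DNA 1 rose, and in all 6 every MFAP5 array lay above the controls. Zbp1, which recognises nucleic acid in the left-handed Z form and can trigger necroptosis, stood at -0.51, -0.19 and -0.26 in the controls and at 0.31, 0.19 and 0.54 with MFAP5. Its difference was 0.67 ± 0.13 (SE, n = 3 per group), with an adjusted p = 0.0308, and its probe sets gave 0.87 and 0.47, of which the first passed. Ddx58, which encodes the RNA helicase RIG-I, differed by 0.55 (adjusted p = 0.0612) and Ifih1, which encodes MDA5, by 0.56 (adjusted p = 0.109). Adar, the editing enzyme that marks cellular RNA as self, differed by 0.46, and Eif2ak2, the kinase PKR, by 0.31. Dhx58, which encodes the helicase LGP2, was the sole member whose probe sets disagreed in sign, at 0.65, 0.47 and -0.27. The mean of Dhx58 was 0.28 (adjusted p = 0.256), and neither Adar nor Eif2ak2 passed.

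The IFIT proteins bind viral RNA and block its translation. Ifit2 rose: it stood at -0.27, -0.35 and -0.22 in the controls and at 0.29, 0.22 and 0.48 with MFAP5. The controls were close together, and all MFAP5 arrays lay clearly above them. The difference was 0.61 ± 0.11 (SE, n = 3 per group; adjusted p = 0.0194). Ifit1 had the larger difference, 0.75 ± 0.18, but its MFAP5 arrays spread from 0.12 to 0.79 and it missed the threshold (adjusted p = 0.0621). Ifit3 differed by 0.48 with overlapping groups, since control replicate 2 at 0.01 lay above MFAP5 replicate 2 at -0.01.

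In the ISG15 conjugation system, which attaches a ubiquitin-like tag to proteins, the deconjugating enzyme rose. Usp18, which removes ISG15 and also dampens signalling at the type I interferon receptor, stood at -0.23, -0.20 and -0.31 in the controls and at 0.51, 0.20 and 0.64 with MFAP5. MFAP5 replicate 2 was well below the other MFAP5 arrays but above every control. Its difference was 0.70 ± 0.13 (SE, n = 3 per group; adjusted p = 0.0229). The ligase Herc6 differed by 0.37 without overlap and did not pass (adjusted p = 0.124). The conjugating enzyme Ube2l6 was the one other member with a negative difference, -0.01 ± 0.13, with a 95% confidence interval from -0.32 to 0.29 and control arrays spread from -0.28 to 0.19.

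Among the TRIM proteins and the PARP and DTX3L regulators 2 of 5 rose. Trim30a, a TRIM protein known as a restraint on inflammatory signalling, stood at -0.32, -0.58 and -0.41 in the controls and at 0.17, 0.09 and 0.52 with MFAP5, a difference of 0.70 ± 0.14 (SE, n = 3 per group; adjusted p = 0.0306). Its 2 probe sets disagreed in size, 1.13 with a call and 0.27 without one, and Trim30a has close relatives that they may not separate. Parp14, which adds single ADP-ribose units to proteins, stood at -0.29, -0.32 and -0.30 in the controls and at 0.17, 0.22 and 0.66 with MFAP5. The controls hardly differed in this mean of 2 probe sets (SD 0.015), but the probe sets themselves had control SDs of 0.20 and 0.17. The difference was 0.65 ± 0.14, with an adjusted p = 0.0458, and neither of its probe sets passed alone. The ubiquitin ligase Dtx3l and its partner Parp9 differed by 0.39 and 0.20, and the RIG-I ligase Trim25 by 0.34, with adjusted p from 0.145 to 0.407.

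The GTPases act on the membranes around pathogens or on viral capsids. Of the 5 GBP and IRG members, which interferon gamma induces strongly, 1 rose. Gbp3 stood at -0.22, -0.29 and -0.31 in the controls and at 0.22, 0.29 and 0.65 with MFAP5. MFAP5 replicate 3 stood apart from the others, and no array of one group reached the other group. The difference was 0.66 ± 0.13 (SE, n = 3 per group; adjusted p = 0.0309). Igtp (0.48, adjusted p = 0.0539), Irgm1 (0.41, 0.114), Gbp2 (0.33, 0.132) and Iigp1 (0.33, 0.289) did not pass. Mx1 stood at -0.30, -0.21 and -0.10 in the controls and at 0.10, 0.26 and 0.93 with MFAP5, a difference of 0.64 ± 0.20 (adjusted p = 0.134). Mx2 differed by 0.63 (adjusted p = 0.151). In both Mx genes the groups were separate but MFAP5 replicate 3 was far above the rest, and without it the differences were 0.39 and 0.41. Mx1 of BALB/c and many other inbred mice carries a deletion in its coding exons and makes no working protein, so its transcript does not stand for a working protein.

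Among the 9 other measured effectors 1 rose and 1 fell. Rtp4, a receptor transporter protein, stood at -0.27, -0.43 and -0.23 in the controls and at 0.23, 0.12 and 0.30 with MFAP5, a difference of 0.53 ± 0.10 (SE, n = 3 per group) with an adjusted p = 0.0314. In this mean of 2 probe sets the MFAP5 arrays were close together, while 1 of the probe sets ran from 0.13 to 0.53 over them. Neither of the gene's probe sets passed alone. Ifi35 (0.52, adjusted p = 0.0572), Xaf1 (0.45, 0.0663) and Rsad2, the antiviral enzyme viperin (0.37, 0.219), were separate between the groups without passing. Samhd1, which depletes the nucleotides a virus needs, differed by 0.33, and its 5 probe sets ran from 0.06 to 0.92. Bst2, the virus tether tetherin (0.15), Lgals3bp (0.05) and Cmpk2, a mitochondrial nucleotide kinase (0.04), overlapped between the groups, with 95% confidence intervals from -0.25 to 0.54, -0.19 to 0.29 and -0.29 to 0.36.

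Ifi27, which encodes a small hydrophobic membrane protein of the mitochondria and the nuclear envelope, ran against the rest. It stood at 0.28, 0.54 and 0.50 in the controls and at -0.28, -0.47 and -0.35 with MFAP5. The groups were separate, and MFAP5 replicate 3, the array with the highest signals of the other members, was no exception here. Ifi27 fell by 0.80 on the log2 scale (SE 0.11, n = 3 per group), with an adjusted p = 0.00705, the lowest adjusted p of all 42 members. Its 2 probe sets gave -0.84 and -0.77 and both passed (adjusted p = 0.0108 and 0.0182). The difference ran from -0.88 to -0.75 as single arrays were left out, and the adjusted p was 0.0504 without control replicate 3. Ifi27 has close relatives in the genome, and the name suffixes of both its probe sets mark them as matching transcripts in common, of 1 gene or of several.

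**Figure D3:**
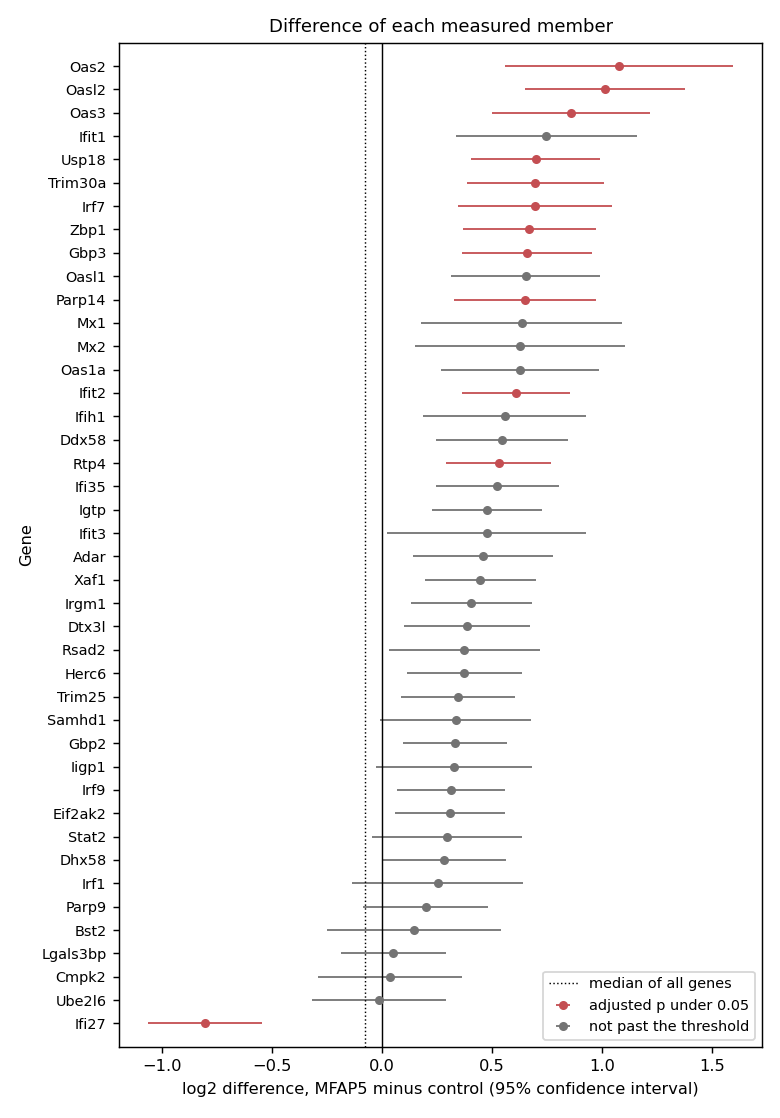
Log2 difference of MFAP5 minus control for each measured interferon-stimulated gene, with its 95% confidence interval from limma (n = 3 per group), in red where the adjusted p was under 0.05. The members form a continuous run from Oas2 at 1.08 down to Ube2l6 at -0.01, called and uncalled members are interleaved, and Ifi27 lies apart at -0.80; the dotted line is the median of all genes at -0.08.

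Size alone did not decide which members were called. The 30 members that were not called ran from -0.01 to 0.75, and the 11 that rose from 0.53 to 1.08. In 7 members the adjusted p lay between 0.05 and 0.1, with differences of 0.45 to 0.75. By difference, 27 of the 42 were among the top 5% of all genes and 36 among the top 10%. Several members lie next to each other in the genome. Oas2 and Oas3 (1.08 and 0.86) and Oasl2 and Oasl1 (1.01 and 0.65) are neighbouring coding genes, and so are Ifit2 and Ifit3 (0.61 and 0.48), Parp14 and Dtx3l (0.65 and 0.39) and Dtx3l and Parp9 (0.39 and 0.20). Rsad2 and Cmpk2 are neighbours too and differed by 0.37 and 0.04. Gbp3 and Gbp2, with 1 coding gene between them, differed by 0.66 and 0.33. In each of these pairs the sizes were unequal while the direction was the same. The differences within the pairs were not tested.

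The rest of the pathway was read from lists of ligands, receptors, signalling genes and sensors. None of 10 interferon ligand genes was called by limma, with 1 higher and 4 lower at an unadjusted p under 0.05 (5.33% and 14.4% of all genes), and the median difference was -0.17. Ifnb1, the interferon beta gene, stood at -0.12, 0.17 and 0.01 in the controls and at 0.04, -0.01 and -0.21 with MFAP5. The groups overlapped (difference -0.08, 95% confidence interval -0.35 to 0.19). Ifng, the interferon gamma gene, overlapped as well (0.01, interval -0.24 to 0.27). Of the 4 ligands below and the 1 above the controls without overlap, Ifna9 (-0.36), Ifnab (-0.41) and Ifna5 (-0.28) were lower and Ifnz (0.43) higher in the MFAP5 arrays, with adjusted p from 0.088 to 0.213. The interferon alpha genes are near-identical copies that probe sets separate poorly. Centring hides whether these ligands had any signal above background.

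None of the 6 interferon receptor genes was called by limma, with 1 higher and 1 lower at an unadjusted p under 0.05. Ifnar1 and Ifnar2, the chains of the type I receptor, differed by 0.15 and 0.22 with overlapping groups (adjusted p = 0.499 and 0.459). For interferon gamma's receptor Ifngr1 was at -0.38 without overlap (adjusted p = 0.196) and Ifngr2 at 0.22 (0.387). Il10rb, the chain that type III interferon shares with interleukin 10, differed by 0.30 (0.178) and its partner Ifnlr1 by -0.30 (0.298). Of 13 JAK-STAT genes and inhibitors 1 rose, Socs3, a feedback inhibitor best known from interleukin 6 signalling, by 0.91 ± 0.18 (SE, n = 3 per group), with an adjusted p = 0.0336. Socs1, the inhibitor more closely tied to interferon signalling, differed by 0.24 (adjusted p = 0.318). The kinases Jak1 and Tyk2 were at 0.45 and -0.02 (0.168 and 0.95), Stat3 at 0.25 (0.199) and Pias1 at 0.38 (0.105).

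Of 14 sensing genes upstream of interferon limma called 0, against 0.759% of all genes higher and 2.79% lower. At an unadjusted p under 0.05 there were 0, against 5.33% of all genes higher and 14.4% lower. In all 14 the groups overlapped, a pattern of 13773 of all 18193 genes. The 6 sensors and regulators among the members, Ddx58, Ifih1 and Zbp1 included, are not part of this list. The kinase Tbk1 differed by 0.32, and the endosomal receptors Tlr3, Tlr7 and Tlr9 by 0.26, -0.18 and -0.17. A wider list of other interferon-induced genes shared no member with the 44. Of 40 measured, 3 rose and none fell (0.759% and 2.79% of all genes), with a median of 0.16. In 13 every MFAP5 array lay above every control array (6.51% of all genes), and in the other 27 the groups overlapped. The difference was positive in 30 and negative in 10. Helz2, a helicase, rose by 1.12 ± 0.20, Parp11 by 0.70 ± 0.13 and Epsti1 by 0.63 ± 0.13 (SE, n = 3 per group). Their adjusted p were 0.022, 0.0248 and 0.0338. In Helz2 control replicate 1 stood at -0.29 and the others at -1.06 and -1.11, against 0.29 to 0.32 with MFAP5. Sp100, a nuclear body protein, differed by 0.54 (adjusted p = 0.0532). These genes overlap in kind with the members, and whether their median differs from that of the members was not tested.

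**Figure D4:**
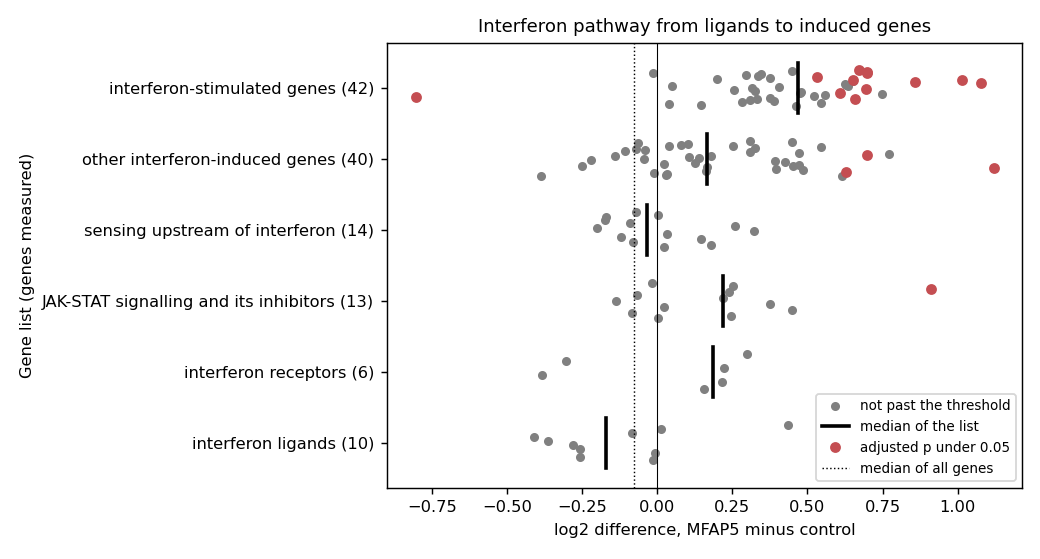
Log2 difference of MFAP5 minus control for each measured gene of the interferon pathway (points; red where the limma adjusted p was under 0.05), by list, with the list median as a black bar and the median of all genes as a dotted line. The medians were -0.17 for ligands, 0.19 for receptors, 0.22 for JAK-STAT genes and inhibitors and -0.03 for upstream sensing genes outside the members. Other interferon-induced genes had a median of 0.16 and the interferon-stimulated genes one of 0.47.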

How the data were processed

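Total RNA of 3 control and 3 MFAP5 samples was labelled with biotin after amplification and read on 1-colour arrays, per the labels' protocols. MAS5 is named in the submitters' processing notes, with later steps not given in the sources used here. Deposited values were taken as log2 signals from their range (the widest probe set spanned 8.24 units). The authors' values were centred, with probe-set medians within 5e-07 of 0. Without levels, no filter, offset or detection call could be applied.

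The 64 control probe sets were left out, leaving 45037, of which 34945 had 1 gene symbol in the platform annotation, 932 several and 9160 none listed. Symbols were updated by Entrez identifier through RefSeq (GRCm38.p6), which held 34741 of them. Probe sets of a gene were averaged. The test was limma 3.58.1 in R 4.3.3 (two-sided, with moderated variances but no trend), adjusted by Benjamini-Hochberg over all genes at a threshold of 0.05 and tested on simulated data. The members and lists were chosen with earlier results of these data known, so no set test or p for a score over members was run.

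Named by rule were members past the threshold, the member of smallest p in each role group, those with a negative difference or probe sets of opposite sign, and up to 4 genes of smallest p in each pathway list with Ifnb1, Ifng, Ifnar1, Ifnar2, Jak1, Tyk2 and Socs1, less 1 gene not reported here. Other members were named after their values were seen. The arrays' number limits the precision.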

Additional observations from a re-analysis of the deposited data

How the results depend on the processing

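The count of 11 interferon-stimulated genes called higher ran from 0 to 15 as single arrays were left out, and the count called lower from 0 to 1; in these fits the median difference lay between 0.39 and 0.53. With array weights 27 members were called higher. With only probe sets whose names lack the suffixes for shared transcripts, 7 of 32 members were called higher and 0 lower, since Ifi27 has no such probe set. With a spike-in covariate 1 was called higher, and the cause was not tested. The unmoderated statistic called 0 higher and 0 lower, with 27 higher at an unadjusted p under 0.05. A minimum log2 difference of 1 left 0 higher and 0 lower, and 0 had an unadjusted p under 0.05 against that minimum. Quantile normalization, median centring, a variance trend and the probe set of largest SD gave 13, 14, 14 and 8. Same-numbered samples correlated in their deviations at 0.18, 0.055 and 0.072, so the numbers were not taken as a pairing; with the replicate number as a block 13 were called higher, among them all 11, and not every sample correlated best with its own number. No called member changed sign under these alternatives.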
